A study of Mus musculus with 16 samples.

Results

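The genes described here are the nuclear-encoded subunits of the mitochondrial respiratory chain and ATP synthase in mouse ventricle. They were taken by symbol: every gene whose name starts with Nduf, Uqcr, Cox4 to Cox8 or Atp5, or is Sdha, Sdhb, Sdhc or Sdhd, provided that 4 or more of the 16 libraries held 10 or more normalized counts of it. The pattern matched 92 genes, and 89 of them passed this filter, out of 22372 genes in the table and 13331 that passed the same filter. By complex they were 42 genes of complex I, 4 of complex II, 8 of complex III, 17 of complex IV and 18 of complex V. Of these, 79 encode structural subunits, 4 encode assembly factors of complex I (Ndufaf1 to Ndufaf4), and 6 are relatives or other genes caught by the pattern (Ndufa4l2, Atp5s, Atp5sl, Atp5l-ps1, Cox4nb and Cox7a2l). At the edge of the filter, Cox6b2 passed with normalized counts of 5.94 to 20.7 and Atp5l-ps1 with 3.41 to 20.0. Cox7b2 did not pass, with 1.34 to 10.7, and Cox8c and a second gene entry named Ndufb8 were listed at 0. Cyc1, a structural subunit of complex III, is not matched by the pattern.

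RNA came from pieces of ventricle of C57BL/6J mice that were 10 to 12 weeks old at the start. Sham-Veh mice had sham surgery and vehicle, Sham-THZ1 mice had sham surgery and THZ1, TAC-Veh mice had transverse aortic constriction (TAC, a narrowing of the aorta that loads the left ventricle with pressure) and vehicle, and TAC-THZ1 mice had TAC and THZ1. THZ1, a covalent inhibitor of the transcription kinases Cdk7, Cdk12 and Cdk13, was injected into the peritoneum at 10 mg/kg, 2 doses per day, from day 1 to day 60. This schedule and the age are those recorded with the samples. The study's methods instead describe daily injections and a narrower age range. Each group had 4 libraries, and the p-values below measure the spread between these libraries. Values are DESeq2-normalized counts as deposited. Libraries held 21.4 to 35.8 M recovered reads, of which 33.2% to 44.7% came from mitochondrially encoded genes.

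The chain sits in the inner mitochondrial membrane. Complexes I and II take electrons from NADH and succinate, coenzyme Q and cytochrome c carry them onwards through complexes III and IV to oxygen, and complex V, the ATP synthase, uses the resulting proton gradient to make ATP. The beating heart draws most of its ATP from this route. Each complex except complex II joins subunits encoded in the nucleus with subunits encoded in mitochondrial DNA. Core subunits carry the redox centres or the conserved catalytic parts, accessory subunits surround them, and within complex V the F1 head makes ATP while the Fo part and the peripheral stalk hold it to the membrane. Nuclear respiratory factor 1 (NRF1), estrogen-related receptors (ERR), ETS factors such as GABP, and YY1 are known regulators of these genes.

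Because these factors are tied to the promoters of the genes, their motifs were searched for in RefSeq promoter windows (assembly GRCm38.p6, 250 bases before to 50 bases after the gene start), which were found for 73 of the 89 members in 79 windows. The build differs from the mm9 annotation of the counts. The NRF1 motif (the 10 capital letters shown for Ndufaf4 and Cox6a1), read on both strands, was in 6 of the members' 79 windows (7.59%) and in 1.33% of all 21263 windows. The ERR motif TCAAGGTCA was in only 2 of the members' windows (2.53% against 0.334%). The YY1 motif AAGATGGCG was in 9 windows of 8 genes (11.4% against 1.83%), and the ETS motif CCGGAAGT in 5 windows (6.33% against 5.15%). Median GC content was 58.3% in the members' windows and 56.3% in all windows. Each match is a description of letters and not of a bound site. The motif with 25 bases on each side is shown for 1 member with an ERR match and 2 members with an NRF1 match, all upstream of the gene start, because Ndufaf4 fell and Cox6a1 rose with TAC and both carry the same motif. Capitals mark the motif, which in Atp5g3 is on the opposite strand.
Atp5g3, chr2:73911345-73911403, minus strand: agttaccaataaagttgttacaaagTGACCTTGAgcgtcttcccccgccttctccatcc
Ndufaf4, chr4:24897945-24898004, plus strand: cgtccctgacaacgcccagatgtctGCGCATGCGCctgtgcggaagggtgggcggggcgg
Cox6a1, chr5:115349086-115349145, minus strand: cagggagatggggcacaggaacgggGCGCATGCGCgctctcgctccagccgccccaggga

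In Sham-Veh hearts the members together took 5.35% ± 0.0529 (SD, n = 4) of all reads outside mitochondrially encoded genes. Levels per kilobase of annotated exon (normalized counts per kb) were highest for Cox4i1 at 40560 ± 961, Cox6a2 at 36596 ± 1588, Cox7a1 at 36494 ± 927, Atp5a1 at 32487 ± 1025 and Ndufa4 at 30942 ± 679 (SD, n = 4). This order depends on the measure of length, because annotated exon can exceed the length of a transcript. Atp5b, at rank 6 with 26019, had 4237 exon bases but 1877 distinct 40-base windows in its transcripts. Cox4i1 had 679 exon bases and 640 windows. Cox4i1, Cox6a2 and Cox7a1 are subunits of cytochrome c oxidase, the last pair being its heart and muscle forms, Atp5a1 is the alpha subunit of F1, and Ndufa4 was long counted in complex I, as its name has it and as it is counted here, and is now placed in complex IV. Cox6a2 did not differ from Cox7a1, nor Atp5a1 from Ndufa4, by more than the sum of their SDs, whereas Cox4i1 lay above Cox6a2 and Cox7a1 above Atp5a1 by more than that. The median over the 79 structural genes was 5699 per kb, and that over the 4 assembly factors was 555 per kb. The labelled tissue was checked on 11 cardiomyocyte markers, whose summed normalized count was 952804 to 1008384 in Sham-Veh. Tnnc1 was the only one of them at 0 in most libraries. Markers of skeletal muscle summed to 28.0 to 63.9 and of atrium to 25.1 to 82.3 per library, with the atrial genes Bmp10 and Sln and the fat genes Ucp1 and Elovl3 at 0 in most libraries.

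TAC-Veh was compared with Sham-Veh to ask what pressure overload did to the chain. Levels fell for 29 of the 89 members and rose for 3, and most genes of complex II, of the F1 head of complex V and of the core were among the falls. Each member was tested with limma on log2(normalized count + 1) in a fit of all 16 libraries, and called at a Benjamini-Hochberg adjusted p under 0.05 over 13331 genes. Over all genes tested, 23.6% were lower and 21.4% higher (45.0% in either direction), so the members' 32.6% lower was somewhat above and their 3.37% higher well below the background. In a fit of Sham-Veh and TAC-Veh alone, 18 members were lower and 0 higher, against 18.3% and 17.2% of all genes. The median log2 fold change was -0.19 over the members and -0.00 over all genes, and 75 of the 89 members lay below 0. None passed a log2 change of 1, which 4.64% of all genes passed upward and 3.37% downward. All 4 TAC-Veh libraries lay below all 4 Sham-Veh libraries for 24 of 89 members, against 19.1% of all genes. They lay above for 0 members, against 18.2% of all genes.

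Counted by complex, 3 of 4 genes of complex II fell, 9 of 18 of complex V, 3 of 8 of complex III, 11 of 42 of complex I and 3 of 17 of complex IV. The median log2 fold changes were -0.46, -0.29, -0.22, -0.15 and -0.16 in the same order. The complex V count takes in genes caught by name that are not structural subunits, such as Atp5sl. Counted by role, 8 of 10 core genes fell (median -0.41) and 4 of 5 F1 genes (median -0.35), against 10 of 52 accessory genes (median -0.15) and 3 of 10 Fo and stalk genes (median -0.24).

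**Figure D1:**
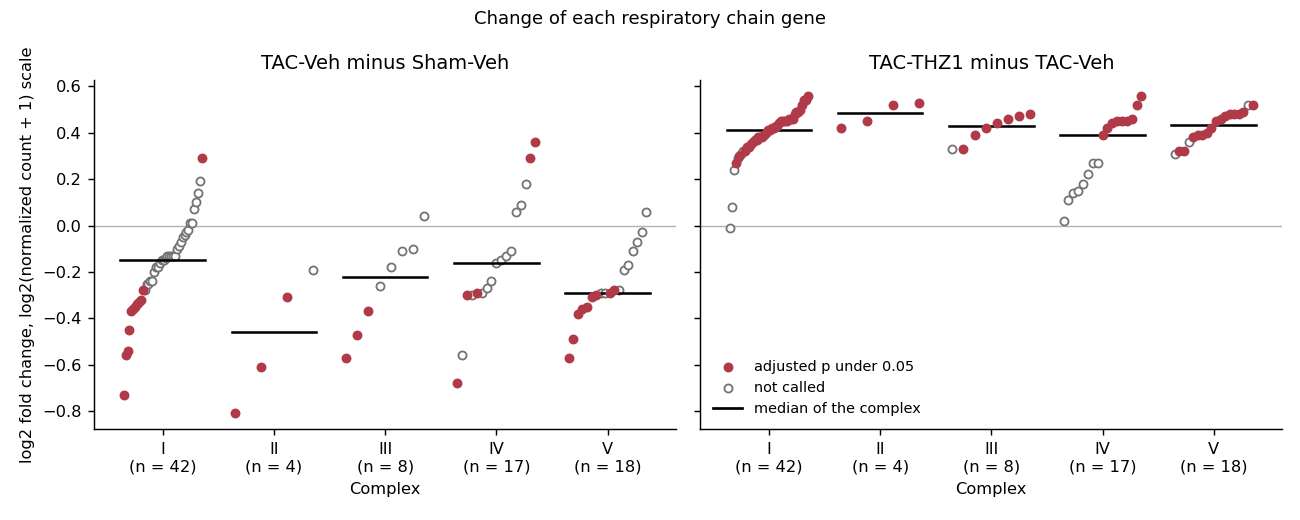
Log2 fold change of each of the 89 genes, on the log2(normalized count + 1) scale, by complex, in TAC-Veh minus Sham-Veh (left) and TAC-THZ1 minus TAC-Veh (right). Filled points passed an adjusted p under 0.05 (limma), open points did not, and bars are medians: on the left 29 genes are filled below 0 and 3 above it, and on the right 71 are filled, all above 0.

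Complex II, succinate dehydrogenase, is also an enzyme of the citric acid cycle and is the one complex made from nuclear genes alone. Sdha (ENSMUSG00000021577.7, mm9 chromosome 13, 74459702 to 74487728, minus strand), the flavoprotein that oxidizes succinate, had normalized counts of 35527, 37643, 36633 and 37762 in Sham-Veh. In TAC-Veh replicates 1 to 4 the counts were 21500, 17133, 23672 and 22569, and in TAC-THZ1 they were 28345, 35715, 27121 and 29984. All 4 TAC-Veh libraries lay below every other library, and 1 TAC-THZ1 library, replicate 2, reached the Sham-Veh range. Sdha fell by 0.81 ± 0.10 (log2 fold change, SE) with TAC (adjusted p = 1.00e-05). This was the largest fall with TAC among the 89 genes.

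Sdhc (mm9 chromosome 1, 173057296 to 173080734, minus strand), a membrane anchor of complex II, counted 8482, 8928, 8761 and 8950 in Sham-Veh. In TAC-Veh it counted 6235, 4826, 6256 and 5794, below all Sham-Veh values. It fell by 0.61 ± 0.08 (adjusted p = 1.40e-05). Sdhb, the iron-sulfur subunit, fell by 0.31 ± 0.10 (adjusted p = 0.0221), a call that was lost in 4 of the alternative settings. Sdhd, the other anchor, had 10787 and 9951 in TAC-Veh replicates 1 and 3, within or above the Sham-Veh range of 9673 to 10167, and 7217 and 7480 in replicates 2 and 4. Its log2 fold change was -0.19 ± 0.10 (adjusted p = 0.153).

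In complex I, Ndufs1 (mm9 chromosome 1, 63190170 to 63223396, minus strand), the large iron-sulfur subunit of the electron input arm, had 19578, 20327, 19677 and 20245 counts in Sham-Veh. TAC-Veh libraries held 12743, 10025, 13065 and 12710, and TAC-THZ1 libraries 14846, 18616, 14169 and 16231. The 3 ranges did not overlap, with TAC-Veh lowest and TAC-THZ1 between. Ndufs1 fell by 0.73 ± 0.09 with TAC (adjusted p = 1.15e-05). Ndufv1, which binds NADH and flavin, fell by 0.56 ± 0.09 (adjusted p = 1.56e-04), from 14271 to 14690 in Sham-Veh to between 8103 and 11543 in TAC-Veh. Ndufs7, which holds the iron-sulfur centre next to coenzyme Q, fell by 0.36 ± 0.09 (adjusted p = 0.00560).

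The assembly factors of complex I did not share a direction. Ndufaf4 counted 1861 to 2039 in Sham-Veh, and 1227, 1160, 1669 and 1316 in TAC-Veh, with no overlap between the groups. It fell by 0.54 ± 0.09 (adjusted p = 2.76e-04). Ndufaf2 counted 403 to 439 in Sham-Veh and 590.2, 462, 584 and 431 in TAC-Veh, where replicate 4 lay inside the Sham-Veh range. It rose by 0.29 ± 0.10 (adjusted p = 0.0233), a call lost in 6 alternative settings. Among the accessory genes of complex I, Ndufa4 (-0.18 ± 0.13), Ndufa12 (0.01 ± 0.12) and Ndufs5 (0.01 ± 0.11) did not pass the test, nor did Ndufa4l2 (-0.05 ± 0.07), a paralogue of Ndufa4.

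In complex III, Uqcrc1, one of the large matrix-facing subunits, counted 21500 to 23642 in Sham-Veh and 15376, 12098, 17647 and 15713 in TAC-Veh. It fell by 0.57 ± 0.10 (adjusted p = 2.69e-04). Uqcrfs1, the Rieske iron-sulfur protein, fell by 0.47 ± 0.09 (adjusted p = 6.43e-04), and Uqcrc2, the partner of Uqcrc1, by 0.37 ± 0.08 (adjusted p = 0.00194). For each of these genes all 4 TAC-Veh libraries lay below all 4 Sham-Veh libraries. Cyc1, the cytochrome c1 gene that the pattern leaves out, had a log2 fold change of -0.37 ± 0.10 (adjusted p = 0.00584).

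Complex IV held genes that moved both ways. Cox7a1, the heart and muscle form of subunit 7a, counted 12790 to 13518 in Sham-Veh and 9787, 6124, 10574 and 7355 in TAC-Veh. It fell by 0.68 ± 0.17 (adjusted p = 0.00345). It was the only 1 of 17 complex IV genes without overlap between the groups, against 19.1% of all genes lower without overlap. Cox5a and Cox4i1, subunits that all tissues use, fell by 0.30 ± 0.10 (adjusted p = 0.0260) and 0.29 ± 0.11 (adjusted p = 0.0338), calls that were lost in 5 and 8 alternative settings. Cox8a, the widely expressed form of subunit 8, counted 1548, 1469, 1621 and 1456 in Sham-Veh and 2618, 1878, 2010 and 1463 in TAC-Veh. Replicate 4 of TAC-Veh was within the Sham-Veh range, and the other TAC-Veh libraries were above it. Cox8a rose by 0.36 ± 0.12 (adjusted p = 0.0195) and Cox6a1, the widely expressed form of subunit 6a, by 0.29 ± 0.09 (adjusted p = 0.0187). Without TAC-Veh replicate 1 neither passed, and without it none of the 89 members was higher and 53 were lower. Cox5b (-0.13 ± 0.12), Cox6a2 (-0.30 ± 0.13), Cox7a2 (-0.15 ± 0.13), Cox8b (-0.16 ± 0.15) and Cox4i2 (-0.11 ± 0.11) did not pass.

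In complex V, Atp5a1, the alpha subunit, was among the most abundant messages of the ventricle, with 99271, 102811, 99325 and 105973 counts in Sham-Veh. TAC-Veh libraries held 74006, 55080, 75649 and 71327, and all lay below Sham-Veh. Atp5a1 fell by 0.57 ± 0.10 (adjusted p = 3.62e-04). Atp5b, the catalytic beta subunit, fell by 0.49 ± 0.11 (adjusted p = 0.00158) and Atp5d, the delta subunit of the central stalk, by 0.30 ± 0.08 (adjusted p = 0.00499). Outside F1, Atp5f1 of the peripheral stalk fell by 0.36 ± 0.10 (adjusted p = 0.00733) and Atp5g3, which encodes the ring subunit c, by 0.38 ± 0.11 (adjusted p = 0.0106), whereas Atp5g1, another gene for the same ring subunit, had -0.17 ± 0.10 (adjusted p = 0.187). Atp5sl, counted here by its name, is not a structural subunit and carries the RefSeq symbol Dmac2. It fell by 0.28 ± 0.06 (adjusted p = 0.00136).

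**Figure D2:**
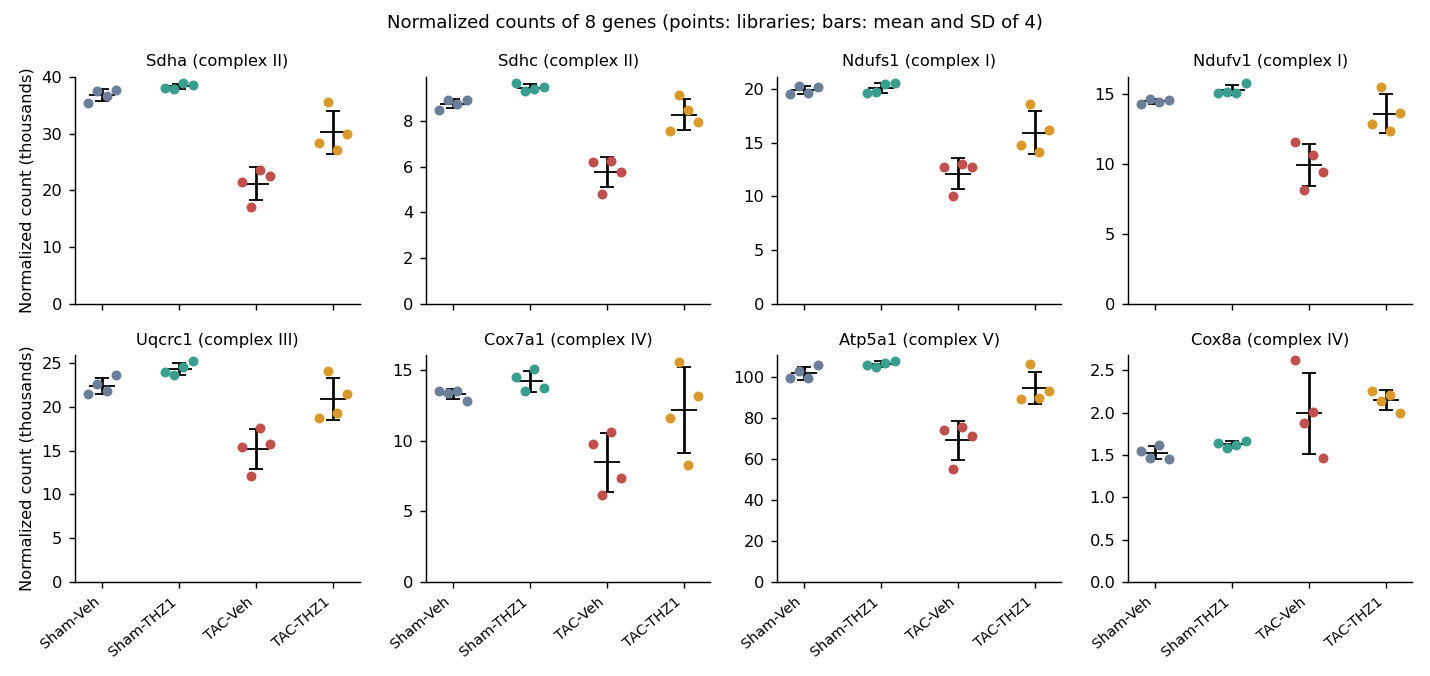
Normalized counts (axis from 0) of 8 genes in each of the 16 libraries, with the mean and SD of the 4 libraries of each group. Sdha, Sdhc, Ndufs1, Ndufv1, Uqcrc1, Cox7a1 and Atp5a1 are lower in all 4 TAC-Veh libraries than in any Sham-Veh library, and Cox8a is higher in 3 of them.

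The TAC-Veh libraries were not alike. The median over all 89 members, as a log2 difference from the Sham-Veh mean, was 0.14, -0.48, 0.00 and -0.47 in TAC-Veh replicates 1 to 4, against -0.02 to 0.02 in Sham-Veh. Replicates 2 and 4 were low for most members and replicates 1 and 3 were not. The median SD of a member between libraries was 0.31 in TAC-Veh, 0.13 in TAC-THZ1 and 0.04 in each sham group (log2 scale), and over all genes it was 0.22, 0.14 and 0.09 to 0.10. Complex II was low in all 4 TAC-Veh libraries, at -0.31, -0.74, -0.28 and -0.52. So were the core genes, at -0.25, -0.71, -0.18 and -0.49, whereas the accessory genes were at 0.22, -0.44, 0.05 and -0.46. The core median minus the accessory median was -0.47, -0.28, -0.22 and -0.04 in TAC-Veh replicates 1 to 4, and between -0.04 and 0.04 in the sham libraries.

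**Figure D3:**
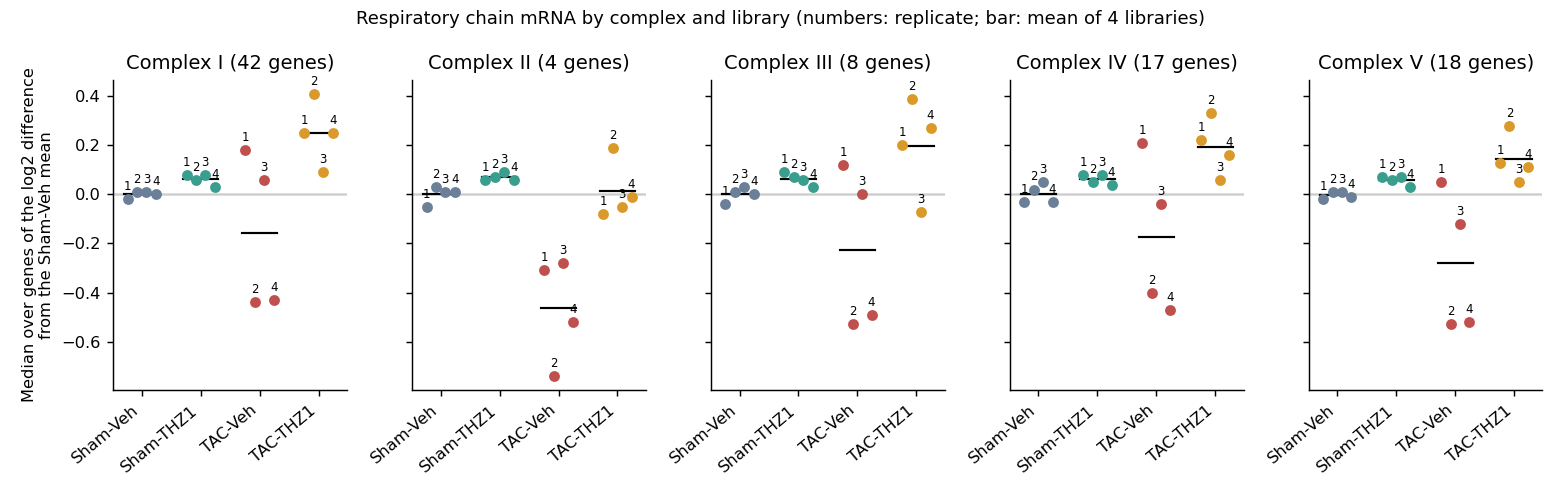
Median over the genes of each complex of the log2 difference from the Sham-Veh mean, 1 point per library with its replicate number and a bar at the mean of the 4 libraries. Sham libraries lie near 0, TAC-Veh replicates 2 and 4 lie below it in every complex, and replicates 1 and 3 lie clearly below it in complex II (-0.31 and -0.28).

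Cell type markers also differed between TAC-Veh and Sham-Veh. The summed count of the 11 cardiomyocyte markers was 907425, 589984, 833627 and 731839 in TAC-Veh replicates 1 to 4, all below the Sham-Veh range. These sums ranked the TAC-Veh libraries in the same order as the members' medians did. The sum of 8 fibroblast markers was 111447, 157473, 71681 and 78587, against 27975 to 31483 in Sham-Veh, and did not follow the order of the members' medians across the TAC-Veh libraries. With TAC, 4 of the 10 cardiomyocyte markers tested were lower and none higher, and 6 of 8 fibroblast and 5 of 8 macrophage markers were higher. The smaller shifts in other lists were 2 higher and 2 lower of 8 endothelial, 1 higher and 2 lower of 7 smooth muscle and pericyte, 1 higher of 3 skeletal muscle, 1 higher of 1 fat, with no call among 5 erythroid markers (2 at an unadjusted p under 0.05) and 1 atrial marker. The share of reads from mitochondrially encoded genes was 37.7%, 33.2%, 42.3% and 34.5% in TAC-Veh. The part of cell makeup and of this share in the members' changes was not tested, and in bulk tissue fewer cardiomyocytes and less RNA per cardiomyocyte cannot be told apart.

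TAC-THZ1 was compared with TAC-Veh to ask what THZ1 did in constricted hearts. Levels rose for 71 of the 89 members and fell for none, in every complex: 36 of 42 genes of complex I, 4 of 4 of complex II, 7 of 8 of complex III, 9 of 17 of complex IV and 15 of 18 of complex V. Over all genes tested, 15.1% were higher and 14.2% lower (limma, adjusted p under 0.05), against 79.8% and 0% of the members. The median log2 fold change was 0.42 over the members and 0.01 over all genes, and 88 of 89 members lay above 0. None reached a log2 change of 0.89, which 1.85% of all genes passed upward and 3.62% downward. The counts in all 4 TAC-THZ1 libraries exceeded those in all 4 TAC-Veh libraries for 32 of 89 members, against 9.53% of all genes.

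The median log2 fold change was 0.42 for core genes, 0.42 for accessory genes, 0.46 for F1 and 0.43 for Fo and stalk, and all 10 core and all 5 F1 genes passed. It was lower, at 0.29, for the 4 assembly factors, of which 2 passed, and at 0.25 for the 6 other genes, of which 2 passed. By complex the medians ran from 0.39 in complex IV to 0.48 in complex II. The members took 4.44% ± 0.600 of reads outside mitochondrially encoded genes in TAC-Veh, 5.69% ± 0.347 in TAC-THZ1 and 5.50% ± 0.0102 in Sham-THZ1 (SD, n = 4).

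The call rate depended on which libraries set the spread. The fit of all 16 libraries takes in the small spread of the sham groups, and a fit restricted to the constricted hearts called 9 members higher (Atp5d, Atp5sl, Ndufaf4, Ndufb10, Ndufs3, Ndufs7, Ndufv1, Sdha and Sdhc) and 4.37% of all genes. Without TAC-Veh replicate 2, and likewise without TAC-THZ1 replicate 2, 44 members were called.

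Of the genes named above in complexes I and II, Sdhc rose by 0.53 ± 0.08 with THZ1 in TAC (adjusted p = 2.45e-04), with 7589, 9138, 8497 and 7957 counts in TAC-THZ1, all above TAC-Veh. Ndufs7 rose by 0.54 ± 0.09 (adjusted p = 7.55e-04), and the assembly factor Ndufaf4 by 0.52 ± 0.09 (adjusted p = 0.00106), with 1849, 2112, 1990 and 1685 counts, which span the Sham-Veh range. Sdha rose by 0.52 ± 0.10 (adjusted p = 0.00140) and Ndufv1 by 0.46 ± 0.09 (adjusted p = 0.00190). Ndufs1 rose by 0.40 ± 0.09 (adjusted p = 0.00408). Of these genes, all but Ndufs1 were also called in the fit of the TAC groups alone.

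The genes named above in complexes III and V all rose. Uqcrc1 rose by 0.47 ± 0.10 (adjusted p = 0.00293), Uqcrfs1 by 0.42 ± 0.09 (adjusted p = 0.00342) and Uqcrc2 by 0.33 ± 0.08 (adjusted p = 0.00781). In the ATP synthase, Atp5a1 rose by 0.46 ± 0.10 (adjusted p = 0.00399), Atp5b by 0.39 ± 0.11 (adjusted p = 0.0134), Atp5d by 0.39 ± 0.08 (adjusted p = 0.00175) and Atp5f1 by 0.48 ± 0.10 (adjusted p = 0.00231). Both ring genes rose, Atp5g1 by 0.48 ± 0.10 (adjusted p = 0.00273) and Atp5g3 by 0.52 ± 0.11 (adjusted p = 0.00301). Atp5sl, which is not a structural subunit, rose by 0.32 ± 0.06 (adjusted p = 0.00120).

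Several genes that had not passed the test with TAC were nevertheless higher with THZ1 in constricted hearts. Cox6a2, the heart and muscle form of subunit 6a, counted 25867, 15511, 22632 and 16130 in TAC-Veh and 29105, 31638, 25879 and 29211 in TAC-THZ1. It rose by 0.56 ± 0.13 (adjusted p = 0.00408). Cox5b rose by 0.45 ± 0.12 (adjusted p = 0.00863), Sdhd by 0.45 ± 0.10 (adjusted p = 0.00498), Ndufa12 by 0.43 ± 0.12 (adjusted p = 0.0114), Ndufa4 by 0.43 ± 0.13 (adjusted p = 0.0229), Cox7a2 by 0.44 ± 0.13 (adjusted p = 0.0176) and Ndufs5 by 0.32 ± 0.11 (adjusted p = 0.0326). The calls of Ndufa4, Cox7a2 and Ndufs5 were lost in 5, 3 and 6 alternative settings, most of them with 1 library left out. Cox5a, Cox4i1, Sdhb and Cox7a1, which had fallen with TAC, rose by 0.45 ± 0.10 (adjusted p = 0.00396), 0.39 ± 0.11 (adjusted p = 0.0124), 0.42 ± 0.10 (adjusted p = 0.00673) and 0.52 ± 0.17 (adjusted p = 0.0282), the last lost in 5 alternative settings.

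The 18 members that did not pass included the 3 genes called higher with TAC in the fit of all 16 libraries, Cox6a1 (0.11 ± 0.09), Cox8a (0.14 ± 0.12) and Ndufaf2 (0.08 ± 0.10). Also not past the test were Cox8b (0.27 ± 0.15), Cox4i2 (0.22 ± 0.11), Ndufa4l2 (-0.01 ± 0.07) and Atp5l-ps1 (0.52 ± 0.34). The remaining ones were Ndufa1, Ndufa11, Ndufaf3, Ndufb3, Uqcr10, Cox4nb, Cox6b1, Cox6b2, Cox7a2l, Atp5k and Atp5l. Complex IV had the lowest share of calls, 52.9%. In TAC-THZ1 the cardiomyocyte markers summed to 989668 to 1210793 and the fibroblast markers to 29924 to 42822, and with THZ1 in TAC 6 of 10 cardiomyocyte markers were higher and 6 of 8 fibroblast markers lower. Of the other lists, 1 of 8 endothelial markers was higher and 3 lower, and 2 of 7 smooth muscle and pericyte markers were lower. Lists without a call were macrophage (0 of 8 at an unadjusted p under 0.05), skeletal muscle (1 of 3), fat (0 of 1), atrial (1 of 1) and erythroid (0 of 5), the last with sums of 31240 and 18210 in TAC-THZ1 replicates 1 and 3 against 7762 to 13462 in TAC-Veh. The part of these markers was not tested.

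TAC-THZ1 was set against Sham-THZ1 to measure what TAC changed while THZ1 was given. Levels rose for 8 members (Ndufa2, Ndufa6, Ndufb3, the assembly factors Ndufaf2 and Ndufaf3, Cox6a1, Cox8a and Cox7a2l, a factor of supercomplex assembly) and fell for 2, Sdha and Ndufs1. Over all genes 11.4% were higher and 12.8% lower, against 8.99% and 2.25% of the members. The median was 0.14 over the members and 0.00 over all genes. Sdha fell by 0.35 ± 0.10 (adjusted p = 0.0179) and Ndufs1 by 0.34 ± 0.09 (adjusted p = 0.0133). Sdha counted 38011 to 38945 in Sham-THZ1, above every TAC-THZ1 library, and Ndufs1 counted 19674 to 20589, likewise. Sdhc (-0.20 ± 0.08, adjusted p = 0.0735) was the only other member with all TAC-THZ1 libraries below all Sham-THZ1 libraries, while 30 members lay above without overlap. Over all genes tested 17.7% lay below and 15.7% above without overlap. The members that rose did so by 0.29 to 0.42, and the calls were fragile: the number higher was 2 when TAC-THZ1 replicate 1 was left out, 19 when TAC-Veh replicate 1 was left out, and 32 in a fit of the THZ1 groups alone, in which 15.4% of all genes were higher. Cell type markers differed here too. Endothelial markers summed to 19047 to 21234 in TAC-THZ1 and 24459 to 25966 in Sham-THZ1, with 2 of 8 higher and 4 lower, and smooth muscle and pericyte markers to 17436 to 18279 and 23606 to 24704, with 4 of 7 lower. Of the macrophage markers 4 of 8 were higher, of the fibroblast markers 3 of 8 were higher and 1 lower, of the cardiomyocyte markers 2 of 10 were higher and 1 lower, and the 1 fat gene and 1 of 3 skeletal muscle genes tested were higher. Erythroid markers summed to 31240, 7124, 18210 and 8986 in TAC-THZ1 replicates 1 to 4 and to 5687 to 10160 in Sham-THZ1, with 4 of 5 at an unadjusted p under 0.05 and no call. Their part in the members' values was not tested.

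The pairing of TAC changes under vehicle and under THZ1 uses no library in both. Of the 79 structural genes, 78 had a higher value under THZ1 than under vehicle, against 6978 of all 13331 genes. Below 0 under vehicle and above 0 under THZ1 were 56 of the 79, against 1952 of all 13331 genes. The order of the genes was alike in both settings, with a Spearman rho of 0.87 over the 79 structural genes and 0.57 over all genes tested. These are correlations across genes, which share libraries and are not independent. The core median minus the accessory median was -0.30, -0.21, -0.20 and -0.22 in TAC-THZ1 replicates 1 to 4, below 0 in every library. The median log2 fold change with TAC under THZ1 was -0.01 for the core, 0.00 for F1, 0.18 for accessory and 0.17 for Fo and stalk genes. Sdha, Ndufs1 and Cox7a1 (-0.26 ± 0.17, adjusted p = 0.272) were at the low end in both settings, and Cox8a (0.40 ± 0.12, adjusted p = 0.0214) and Cox6a1 (0.29 ± 0.09, adjusted p = 0.0321) at the high end.

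**Figure D4:**
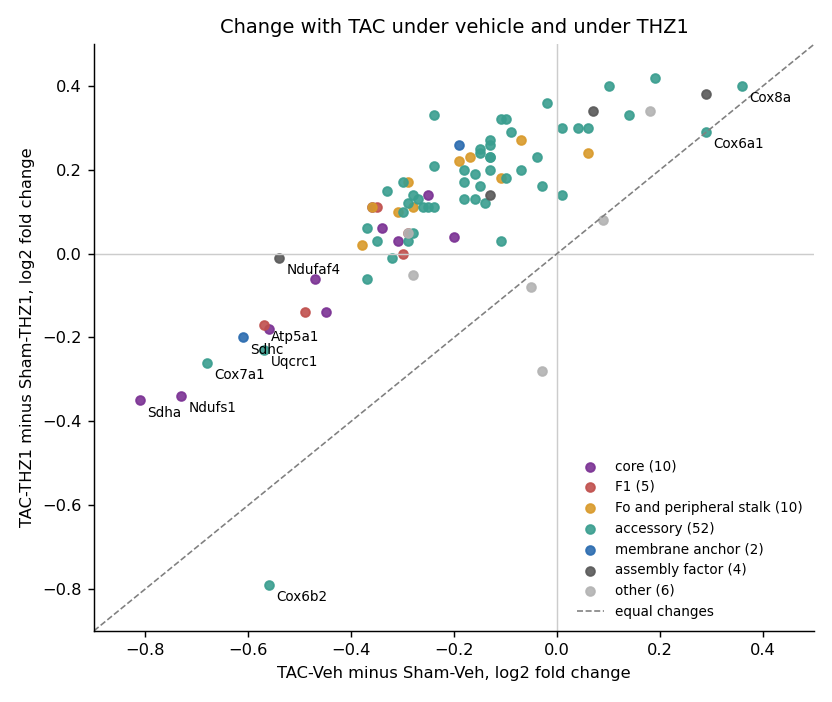
Log2 fold change with TAC under THZ1 (y) against that under vehicle (x) for the 89 genes, coloured by role, with a dashed line where both are equal. All but 1 of the 79 structural genes lie above the line (Cox6b2, with at most 20.7 counts, lies below it). Core and F1 genes lie left of 0 under vehicle, with medians of -0.01 and 0.00 under THZ1.

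Whether THZ1 changed the response to TAC itself was tested as the interaction. The interaction was above 0 for 85 of 89 members, with a median of 0.35, and passed for 5, all positive: Ndufaf4 at 0.53 ± 0.13 (adjusted p = 0.0228), Sdhc at 0.41 ± 0.11 (adjusted p = 0.0267), Ndufs7 at 0.47 ± 0.13 (adjusted p = 0.0376), Atp5f1 at 0.47 ± 0.14 (adjusted p = 0.0429) and Sdha at 0.46 ± 0.14 (adjusted p = 0.0478). The background was 4.40% of all genes positive and 5.62% negative, so 5 of 89 members (5.62%) was near the background. At an unadjusted p under 0.05 there were 48 of 89 members and 3618 of 13331 genes in either direction. The count was 0 when Sham-Veh replicate 3 or TAC-THZ1 replicate 2 was left out, 36 when TAC-Veh replicate 3 was left out and 50 when TAC-Veh replicate 1 was.

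THZ1 was compared with vehicle in sham hearts to see its effect without pressure overload. No member passed the test (limma, 1 member at an unadjusted p under 0.05, and 0 called by edgeR and by DESeq2 on recovered reads). Over all genes 0.0225% were higher and 0.0450% lower (0.0675% in all). Values were nonetheless shifted slightly upward: 78 of 89 members lay above 0, with a median log2 fold change of 0.06 over the members and 0.00 over all genes. All 4 Sham-THZ1 libraries exceeded all 4 Sham-Veh libraries for 29 members, against 6.29% of all genes, and for none was the reverse so, against 5.05%. Of the 5 members with the smallest p, Sdhc had 0.11 ± 0.08 (adjusted p = 0.848), with 9697, 9326, 9420 and 9492 counts, all above Sham-Veh. Ndufs5 had 0.19 ± 0.11 (adjusted p = 0.792), Ndufa12 0.14 ± 0.12 (adjusted p = 0.884), Atp5sl 0.09 ± 0.06 (adjusted p = 0.833) and the low Atp5l-ps1 0.77 ± 0.34 (adjusted p = 0.696). The pooled spread is wider than that of the sham libraries, and in a fit of the sham groups alone 2 of 89 members, Atp5e and Ndufs5, were higher, against 2.15% of all genes in that fit, a share near this background.

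Some subunits are encoded by paralogous genes, 1 expressed mainly in heart and skeletal muscle and 1 in most tissues, so the log2 ratio of the pair within each library shows their balance in the tissue and does not depend on the scaling between libraries. In bulk tissue the ratio can also move with the mix of cell types, whose markers differed between TAC-Veh and Sham-Veh as given above. The part of that mix was not tested. The ratio of Cox6a2 to Cox6a1 was 21.2 to 23.5 (linear) in Sham-Veh and 12.1 to 16.4 in TAC-Veh, below every Sham-Veh library. On the log2 scale the means were 4.46 ± 0.06 and 3.88 ± 0.20 (SD, n = 4), a difference of -0.58 (exact permutation p = 0.0286, adjusted 0.114). In TAC-THZ1 the mean was 4.33 ± 0.23, and the 0.45 above TAC-Veh did not pass (exact permutation p = 0.0571, adjusted 0.196).

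The ratio of Cox7a1 to Cox7a2 was 2.33 to 2.46 in Sham-Veh and 1.42, 1.38, 1.87 and 1.96 in TAC-Veh. In TAC-THZ1 it was 1.61, 2.06, 1.29 and 2.07, still below every Sham-THZ1 library (2.25 to 2.54). The log2 differences with TAC were -0.53 under vehicle and -0.50 under THZ1 (each exact permutation p = 0.0286, adjusted 0.114), and the difference between TAC-THZ1 and TAC-Veh was 0.08. The ratio of Cox8b to Cox8a was 4.55 to 4.74 in Sham-Veh and 3.42, 2.63, 3.62 and 3.48 in TAC-Veh, a log2 difference of -0.51 (exact permutation p = 0.0286, adjusted 0.114). In each of these pairs the muscle form was lower relative to the other form in every TAC-Veh library than in any Sham-Veh library. For the ring genes, the log2 ratio of Atp5g1 to Atp5g3 was higher with TAC by 0.21 under vehicle and by 0.21 under THZ1, again without overlap. The Cox4i2 to Cox4i1 and Ndufa4l2 to Ndufa4 ratios overlapped between TAC-Veh and Sham-Veh. With 4 against 4 libraries the smallest two-sided p is 0.0286, and none of the 24 comparisons passed after adjustment.

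**Figure D5:**
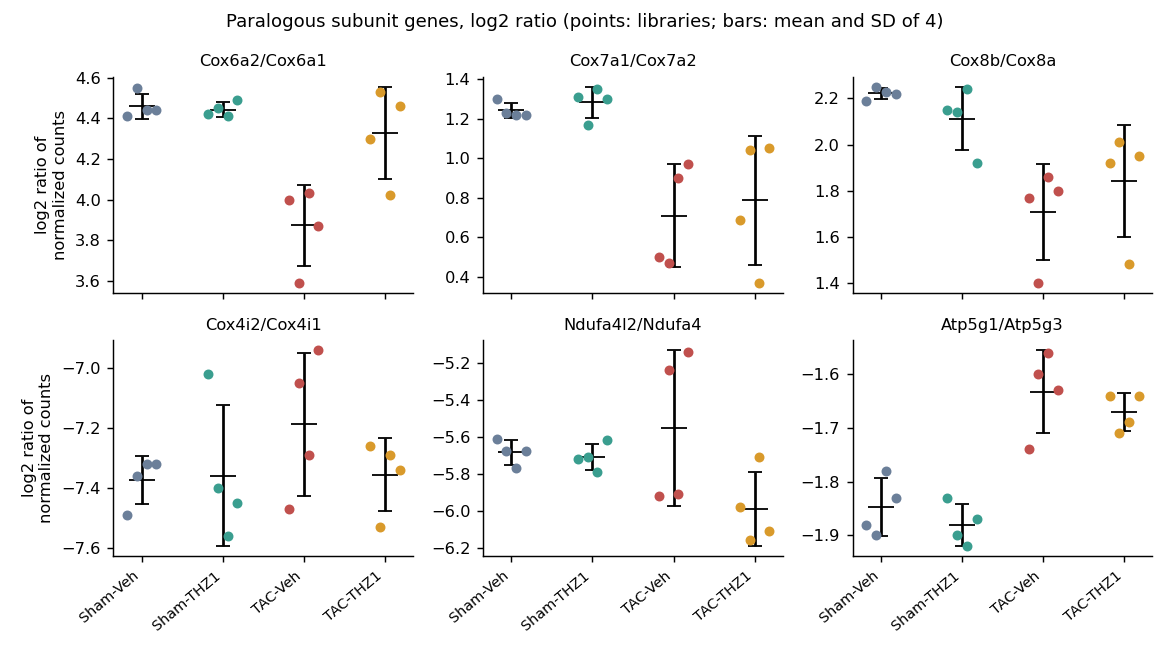
Log2 ratio of normalized counts for 6 pairs of paralogous genes, 1 point per library, with the mean and SD of the 4 libraries in each group. TAC-Veh lies below Sham-Veh without overlap for Cox6a2/Cox6a1, Cox7a1/Cox7a2 and Cox8b/Cox8a, and above it for Atp5g1/Atp5g3.

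Annotated exon length moved with these patterns. It counts all annotated exon of a gene and can exceed the length of its transcripts. Ndufb7 had 4522 exon bases and 584 distinct 40-base windows in its transcripts, and Sdhb 2239 and 1103. Across the 79 structural genes the log2 fold change with TAC had a Spearman rho of -0.53 with the exon bases of the gene and -0.61 with its mean level, against -0.18 and -0.16 over all genes tested. Ranked by exon bases, 18 of the 27 longest genes (1908 to 6883 bases) fell, among the 26 of middle length 5 fell, and among the 26 shortest (362 to 858 bases) 3 fell and 2 rose. Core genes had more annotated exon, with a median of 2160 bases against 887 for accessory genes. Among the longest genes, 6 of 7 core genes fell (median -0.45) and 4 of 10 accessory genes (median -0.24). Under THZ1 the rho with exon bases was -0.44 over the structural genes and -0.39 over all genes. The part of length, RNA quality or level in the difference between core and accessory genes was not tested.

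Reads of 40 bases cannot always be placed on 1 gene of a family. Among 40-base windows of the members' transcripts, a median of 98.5% per gene were unique, and every window was unique for Sdha, Sdhb, Sdhd, Ndufs1, Ndufv1, Cox7a1 and Atp5a1. For 7 members fewer than 50% were unique, namely Atp5g2 (0.0%), Atp5l, Uqcrb, Cox5b, Atp5l-ps1, Cox7a2l and Atp5h, so their counts are uncertain. The share was 72.5% for Cox8a, 82.5% for Cox6a1, 74.3% for Atp5f1 and 70.2% for Atp5g1.

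Other genes of the same pathway were counted from fixed lists. Over all genes tested, 21.4% were higher and 23.6% lower with TAC, and 15.1% higher and 14.2% lower with THZ1 in TAC. All 14 citric acid cycle enzymes fell with TAC (median log2 fold change -0.50) and all 14 rose with THZ1 in TAC (0.41). Idh2, which makes NADPH in the matrix, had -0.61 ± 0.15 (adjusted p = 0.00348) and then 0.62 ± 0.15 (adjusted p = 0.00569). Of 28 further assembly factors, 14 fell and 2 rose with TAC, and 17 rose and 1 fell with THZ1 in TAC. Cox19, a copper-handling assembly factor of complex IV, went the other way, with 0.84 ± 0.07 (adjusted p = 5.07e-07) and then -0.25 ± 0.07 (adjusted p = 0.0194). Of 12 genes for cytochrome c and coenzyme Q synthesis, 6 fell with TAC and 8 rose with THZ1 in TAC.

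Of 7 genes that regulate the ATP synthase or carry its substrates and products, 2 rose and 1 fell with TAC. Over all genes 21.4% were higher and 23.6% lower. Slc25a5, an adenine nucleotide carrier, rose by 0.36 ± 0.10 (adjusted p = 0.00716). Atpif1, the inhibitor protein of the ATP synthase, rose by 0.57 ± 0.15 (adjusted p = 0.00487), while 4 of 5 F1 genes fell, and had -0.01 ± 0.15 with THZ1 in TAC (adjusted p = 0.961). Slc25a3, the phosphate carrier, fell by 0.51 ± 0.09 (adjusted p = 4.42e-04) and was among the 3 that rose with THZ1 in TAC, by 0.58 ± 0.09 (adjusted p = 4.88e-04). Of 16 genes for import, pores and cristae, 1 rose and 4 fell with TAC, a share of falls near the 23.6% over all genes. With THZ1 in TAC 13 of them rose, against 15.1% of all genes.

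Of 13 transcription regulators of the chain, 9 fell and none rose with TAC. Ppargc1a and Ppargc1b, coactivators of mitochondrial genes, fell by 0.79 ± 0.23 (adjusted p = 0.0110) and 1.30 ± 0.23 (adjusted p = 3.33e-04), and Esrra, an ERR, by 0.43 ± 0.08 (adjusted p = 4.95e-04). With THZ1 in TAC 5 of them rose, among them Esrra by 0.55 ± 0.08 (adjusted p = 2.50e-04) and Ppargc1a by 0.70 ± 0.23 (adjusted p = 0.0307). Of the 12 mitochondrially encoded subunit genes tested, which make the partner subunits of complexes I, III, IV and V, 2 fell and 1 rose with TAC (median -0.27). Neither share was above that over all genes (23.6% lower and 21.4% higher). With THZ1 in TAC the median of these 12 genes was 0.35 and 1 was at an unadjusted p under 0.05, without passing the adjusted test. In sham hearts the one gene of these pathway lists that passed with THZ1 was mt-Nd6, a complex I subunit and the single protein gene on the light strand of mitochondrial DNA, which fell by 1.24 ± 0.18 (adjusted p = 0.00667) from a mean of 16735 to 7015.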

How the data were processed

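Per the labels and the study's methods, the authors aligned 40-base single-end stranded reads to mm9 with TopHat 2.1.1, counted them by gene on GENCODE mm9 with HTSeq and deposited DESeq2-normalized counts, a signal divided by library size factors (0.749 to 1.40). Versions of the last pair of tools are not given in the sources used here. The deposited counts divided by 1 read gave whole reads for 100.0% of values (tolerance 0.01). The 13331 genes for which 4 or more of 16 libraries held 10 or more normalized counts were tested with limma 3.58.1 (R 4.3.3) on log2(count + 1), with group means over all libraries and a trended prior. Adjusted p-values are Benjamini-Hochberg over these genes. Folds on this scale are understated for low genes. edgeR 4.0.16 and DESeq2 1.42.0 on recovered reads, other scalings, filters, pseudocounts and left-out libraries were alternatives. Isoform ratios used an exact permutation test (SciPy 1.17.1). The members and lists were chosen with earlier results of these data known. Named members were all Sdh genes, both genes of each isoform pair, in the other complexes the 3 with the smallest p in each of TAC-Veh versus Sham-Veh and TAC-THZ1 versus TAC-Veh, those called (or the 5 with the smallest p) in sham hearts and in the interaction, those called against their complex, and the 5 with the highest level per kb. Other members were named where a count of few was given, after their values were seen.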

Additional observations from a re-analysis of the deposited data

Results flagged for a closer look

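For 7 of the 180 groups of 4 libraries examined among the named members and the library medians, 1 library stood apart from the other 3 by more than Dixon's 95% critical value. Chance alone flags some groups in this way at the 95% level. Ndufs1 had 10025 counts in TAC-Veh replicate 2, against 12710 to 13065 in the other TAC-Veh libraries, and Ndufs7 had 7830 in TAC-THZ1 replicate 2, against 6775 to 6895. Replicate 2 was the lowest TAC-Veh library and the highest TAC-THZ1 library over the members, and the counts of calls without each are given above. Cox4i2 had 147 counts in Sham-Veh replicate 1 (others 170.1 to 175), Ndufa4l2 259.6 in TAC-Veh replicate 3 (others 293 to 295), Ndufaf4 2049 in Sham-THZ1 replicate 2 (others 1860 to 1876) and Ndufv1 15837 in Sham-THZ1 replicate 4 (others 15075 to 15158). The median of the Fo and stalk genes in Sham-THZ1 replicate 4 was -0.00 on the log2 scale (others 0.07 to 0.08).

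The interaction of THZ1 with TAC passed its test (limma, adjusted p under 0.05) for Atp5f1 (0.47), Ndufs7 (0.47), Sdha (0.46), Ndufaf4 (0.53) and Sdhc (0.41). These calls were lost in 15, 13, 15, 2 and 6 alternative settings in that order, and 5 of 89 members is near the share over all genes (4.40%).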

How the results depend on the processing

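The median over the members kept its sign in every comparison under each alternative run: it was -0.32 to -0.11 for TAC under vehicle, 0.32 to 0.51 for THZ1 in TAC, 0.09 to 0.20 for TAC under THZ1, 0.26 to 0.45 for the interaction and 0.04 (upper quartile scaling) to 0.08 for THZ1 in sham hearts. Counts of calls moved more, and the cause was not tested beyond what each setting changes by construction. For TAC under vehicle the number lower was 44 with array weights, 18 in a fit of the compared groups alone, 18 at an adjusted p under 0.01 and 22 to 53 with 1 library left out, and the number higher was 0 in the compared groups alone, 5 with scaling to the total outside mitochondrially encoded genes, 0 at 0.01 and 0 to 5 with 1 library left out. For THZ1 in TAC the number higher was 9 in the compared groups alone, 32 at 0.01 and 44 to 82 with 1 library left out. For THZ1 in sham hearts it was 2 in the compared groups alone. For TAC under THZ1 the number higher was 34 with array weights, 32 in the compared groups alone, 5 with no filter, 18 with quantile normalization, 20 with the outside-mitochondrial scaling, 15 with upper quartile scaling, 5 with structural subunits only, 0 at 0.01 and 2 to 19 with 1 library left out, and the number lower was 6, 4 and 4 with array weights, the compared groups alone and quantile normalization, 0 at 0.01 and 1 to 4 with 1 library left out. For the interaction the number positive was 12 with DESeq2, 55 with array weights, 3 with no filter, 16 with quantile normalization, 12 with the outside-mitochondrial scaling, 13 with upper quartile scaling, 0 at 0.01, 0 to 50 with 1 library left out, and 20 with edgeR without TAC-Veh replicate 3 and TAC-THZ1 replicate 4, a setting chosen after seeing the data. Under the outside-mitochondrial scaling, all genes split into 3496 higher and 2361 lower for TAC under vehicle and 1440 and 2411 for THZ1 in TAC. Replicate numbers did not pair the libraries (same-number correlations of deviations from -0.43 to 0.16, and not every library correlated best with its own number), and with a replicate block the interaction had 2 calls in place of 5.

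Of the named members' values, 2519 stayed on their side of the threshold, 165 lost a call, 12 gained one and 24 changed sign, all among values that had not been called. With TAC, Atp5l-ps1 was at 0.10 (DESeq2), 0.09 (edgeR), 0.03 (pseudocount 10), 0.03 (outside-mitochondrial scaling) and -0.29 to 0.37 with 1 library left out. Ndufa12 was at -0.03 with array weights, -0.05 in edgeR without the pair of libraries above and -0.08 to 0.11 with 1 library left out, and Ndufs5 at -0.04, -0.02 and -0.09 to 0.10. Ndufa4l2 was at 0.00 and 0.02 in edgeR without that pair and in the outside-mitochondrial scaling, and at -0.05 to 0.01 for THZ1 in TAC with 1 library left out. A count of reads limits low genes such as Cox6b2 and Atp5l-ps1, and depth does not limit the abundant subunits.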
